A study of Mus musculus with 2 samples.

Results

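Wif1 fibroblasts are described here in squamous tumours of the mouse tongue: fibroblasts that held at least 1 UMI (1 counted RNA molecule) of Wif1. They numbered 762 of 22737 kept cells, 69 of 8269 in the control library and 693 of 14468 in the JQ1 library. Barcodes needed 200 or more genes and less than 20% mitochondrial UMIs. A barcode was gated as a fibroblast where Col1a1, Col1a2, Col3a1 and Dcn made up at least 0.5% of its UMIs, Krt5 and Krt14 under 0.5%, and Ptprc, Pecam1 and Cdh5 were at 0. Members further had 0 UMIs of Pi16, a marker of adventitial fibroblasts, and fewer than 5 of the contractile and wound fibroblast genes Acta2, Tagln and Cthrc1. Members were thus chosen by their measured counts of Wif1 and of these other genes, whose values are a description and support nothing.

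The tumours were induced in wild type C57BL/6 mice with 4NQO, a carcinogen that makes DNA adducts and gives oral squamous cell carcinoma, the mouse model of head and neck cancer used here. The mice then received JQ1, which keeps BET bromodomain proteins off acetylated histones, or control treatment for 10 days. There was 1 library per treatment, made with the 10x 3' chemistry, so every JQ1 against control value sets 1 library against 1 other, without a test. How many mice went into a library, their age, the JQ1 dose and its vehicle were not stated in the labels used. Levels are UMIs summed over the cells of a set, scaled to the UMI total of that set (CPM). Intervals in parentheses are 95% and cover counting error only.

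Wif1 encodes a secreted protein that binds Wnt ligands and keeps them from their receptors. Cells that receive a Wnt signal commonly make such antagonists themselves, together with intracellular brakes such as Axin2 and the Nkd proteins, so that the genes serve as a readout of the pathway. In skin, the fibroblasts next to the epithelium (papillary) differ from those deeper down (reticular) in Wnt feedback genes, in retinoid-binding proteins such as Crabp1 and in the matrix they lay down. The tongue has an equivalent connective tissue under its papillae. Gdf10, also named Bmp3b, is a ligand of the Tgf-beta family, Mmp3 (stromelysin 1) is a secreted protease that cuts matrix proteins and activates other proteases, and Aqp1 is a water channel.

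Totals were 118382532 UMIs over 9754 control barcodes and 99565417 UMIs over 16233 JQ1 barcodes. Members had medians of 3732 and 4259 UMIs, above the 2734.5 and 3456 UMIs of the other fibroblasts, which met every other part of the rule and had 0 Wif1 UMIs (404 control and 1903 JQ1 cells). Summed over the members, that gave 299250 UMIs in control and 3513498 in JQ1, so that the control sums are the limit on every gene below. The libraries shared 40 barcodes, of which 1 was a control member and 4 were JQ1 members. Haemoglobin and salivary gland RNA differed between the libraries in members and in other fibroblasts: in members, 5 erythroid markers summed to 3.34 CPM in control (Hba-a1, Hba-a2, Hbb-bt and Alas2 at 0) and 998 in JQ1, and 6 gland markers to 36.8 CPM (Dcpp1, Dcpp2, Lpo and Krt18 at 0) and 866 (Lpo at 0). In other fibroblasts the erythroid sum was 0.793 and 5177 CPM and the gland sum 36.5 and 784 CPM.

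The label of papillary-type fibroblasts was set beside its markers. The cells were proposed with Gdf10, Mmp3, Crabp1 and Aqp1, so the values of these 4 are a description and cannot check the label. Fibroblast genes outside the rule were present: Pdgfra was detected in 65.2% of control and 73.9% of JQ1 members, and Lum in 82.6% and 79.9%. Gdf10 had a UMI in 42.0% of control members (30.2 to 54.5) and 67.0% of JQ1 members (63.3 to 70.5), against 20.5% and 30.3% of other fibroblasts. Crabp1 was detected in 69.6% and 77.2% of members against 23.5% and 37.6%. Aqp1 was detected in 82.6% and 90.6% against 30.2% and 42.5%, and Mmp3 in 47.8% and 35.4% against 14.1% and 17.3%. At least 3 of these 4 markers were found together in 55.1% of control and 65.8% of JQ1 members, and in 12.6% and 17.0% of other fibroblasts. The markers thus went with Wif1 in each library, although Mmp3 was not detected in most members. Members had more UMIs per cell; among cells of 2000 to 8000 UMIs, Gdf10 was found in 37.0% and 68.9% of members against 24.1% and 32.7%, and Crabp1 in 82.6% and 81.2% against 27.7% and 41.8%.

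Of 11 papillary dermis genes measured in both libraries, 5 were at least 2-fold higher in members than in other fibroblasts in both (Crabp1, Axin2, Nkd2, Gdf10 and Aqp1) and 0 were lower. Genes needed 30 UMIs over the sums compared and 30 CPM in the higher one to be measured, and a 2-fold ratio to be called. Over all 4952 genes measured in both libraries, 79 (1.6%) were called higher and 60 (1.21%) lower in both, and 3 of those 5 are among the markers the cells were proposed with, so the count is a description. Ntn1, Trps1, Rspo1, Pdpn, Col23a1 and Mmp3 of the same list were not called in both libraries. Within single libraries, 5.82% of 5427 genes were higher and 5.51% lower in control members, and 2.45% and 1.8% of 5346 in JQ1 members (11.3% and 4.25% either way). Of 11 reticular and adventitial genes, 0 were higher and 2 lower (Penk and Clec3b).

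Wif1 UMIs were also found in cell types that should lack the gene, and the rule admits a fibroblast with 1 UMI. In control, a Wif1 UMI was seen in 0.356% of keratinocytes (11 of 3091 cells, median 18697 UMIs), 0 of 486 endothelial cells (an upper bound of 0.756%) and 0 of 216 immune cells, against 13.0% of gated fibroblasts. In JQ1 it was seen in 3.18% of keratinocytes, 2.79% of endothelial and 3.44% of immune cells, against 20.8% of gated fibroblasts, at medians of 4005 UMIs in endothelial cells and 3930 in fibroblasts. Members with exactly 1 Wif1 UMI were 20 of 69 in control and 155 of 693 in JQ1, and 28 and 358 had 5 or more. The median member held 3 Wif1 UMIs in control and 5 in JQ1, with highest cells of 41 and 195.

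Cells just inside and just outside the limits were compared as a description. Gdf10 was found in 30% of control members with 1 Wif1 UMI, 33.3% with 2 to 4 and 57.1% with 5 or more, and in 51.0%, 53.9% and 80.4% of the JQ1 members. Crabp1 followed the same order (50%, 61.9% and 89.3% in control, 64.5%, 73.3% and 84.6% in JQ1), whereas Mmp3 did not in JQ1 (34.2%, 38.9% and 34.1%). By detection, cells with a single Wif1 UMI therefore lay between other fibroblasts and the Wif1-rich members for Gdf10 and Crabp1. Median UMIs rose over these 3 steps too (2382, 4044 and 4210.5 in control, 3869, 3996 and 4461.5 in JQ1). The part of depth was not tested. Levels followed the order for Crabp1 in control (497, 1198 and 1687 CPM) and Gdf10 in JQ1 (390, 475 and 1138 CPM). They did not for Gdf10 in control (414, 240 and 578 CPM) or Crabp1 in JQ1 (1035, 908 and 1159 CPM). Another 13 control and 123 JQ1 cells met the rule but for a Pi16 UMI, 11 and 32 but for the contractile genes, and 62 and 425 but for the 0.5% limit on collagen and Dcn. Of JQ1 cells at 0.4 to 0.5% collagen and Dcn, 86 in number, 84.9% had Crabp1 and 90.7% Aqp1, and of the 85 members at 0.5 to 0.6% these were 83.5% and 95.3%, so cells on either side of the collagen limit had like shares of both markers.

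**Figure D1:**
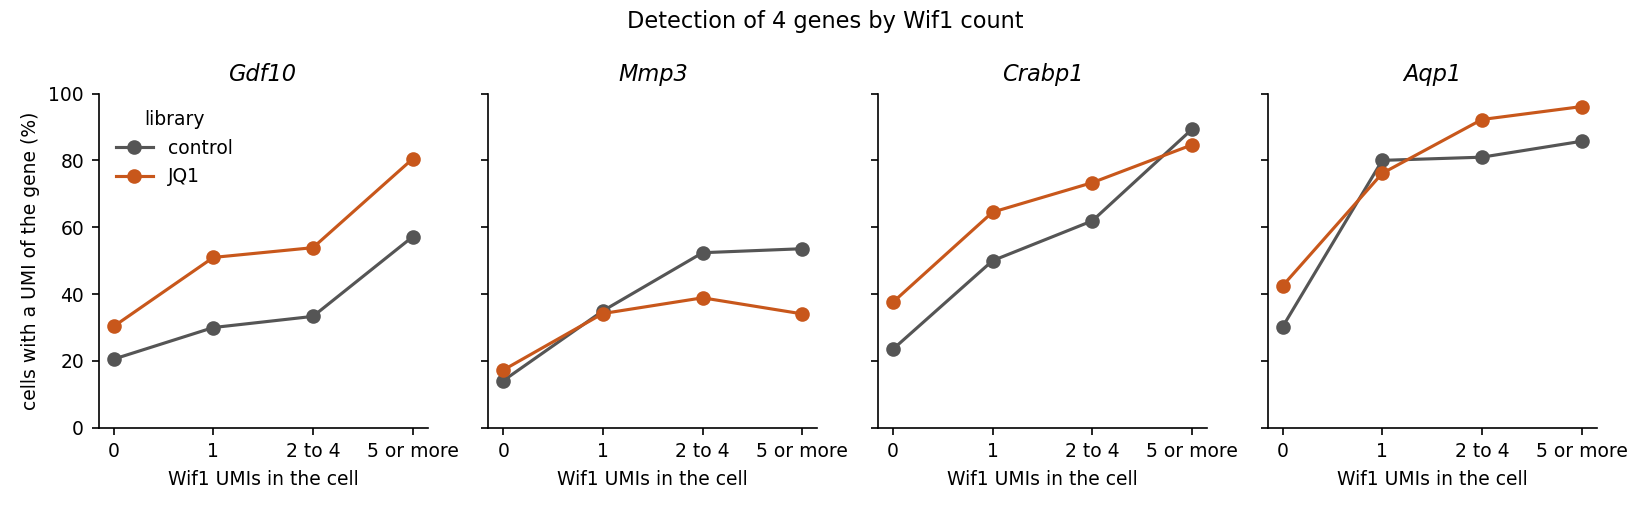
Share of cells with a UMI of Gdf10, Mmp3, Crabp1 or Aqp1 (percent, y axis) by the number of Wif1 UMIs in the cell (x axis), for the control (grey) and JQ1 (orange) libraries; 0 marks the other fibroblasts. Gdf10 and Crabp1 are found more often with each step in Wif1 count, up to 80.4% and 84.6% of JQ1 cells with 5 or more, and Mmp3 stays at 34.1% there.

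Levels lay on the same side as detection. Gdf10, given as members against other fibroblasts, stood at 441 against 124 CPM in control and 811 against 197 CPM in JQ1, a ratio of 3.54-fold (2.79 to 4.50) and 4.11-fold (3.86 to 4.38). Aqp1 stood at 1671 against 347 CPM in control and 1777 against 477 CPM in JQ1, 4.81-fold (4.22 to 5.48) and 3.72-fold (3.57 to 3.88) higher. Crabp1, which carries retinoic acid in the cytoplasm, stood at 1297 against 282 CPM in control and 1068 against 377 CPM in JQ1. Mmp3 was 2.97-fold (2.81 to 3.14) higher than in other fibroblasts in control but only 1.30-fold (1.26 to 1.34) in JQ1, where 2115 CPM faced 1629 CPM. In cells of 2000 to 8000 UMIs Mmp3 stood at 6400 against 799 CPM in control and 1323 against 449 CPM in JQ1. These are log2 ratios of 3.002 and 1.56, past 2-fold in both libraries. Its level was also uneven between cells: the highest control member held 24.8% of all Mmp3 UMIs of its set.

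**Figure D2:**
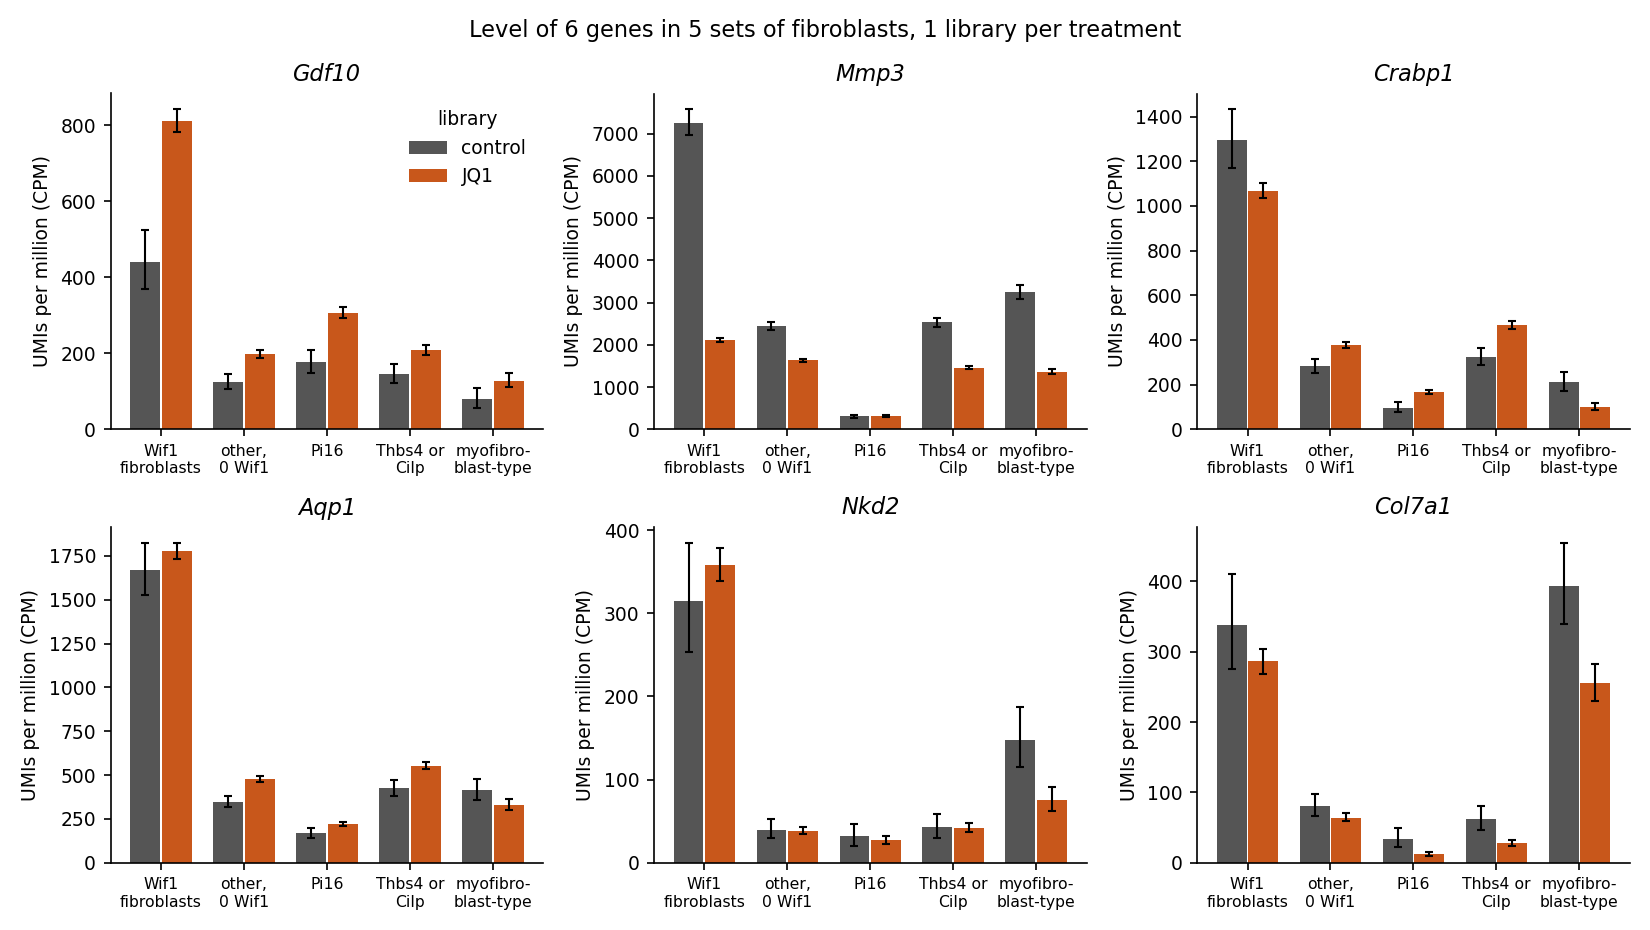
Level of 6 genes (CPM, y axis, starting at 0) in Wif1 fibroblasts and 4 other sets of gated fibroblasts without Wif1, in the control (grey) and JQ1 (orange) library; whiskers are 95% Poisson intervals, and cells with Thbs4 or Cilp are a subset of the other fibroblasts. Gdf10, Crabp1, Aqp1 and Nkd2 are highest in Wif1 fibroblasts in both libraries, and Col7a1 in control myofibroblast-type cells stands at 394 CPM.

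Some secreted Wnt antagonists were higher in members and some lower. Among all 4952 genes measured in both libraries, 1.6% were called higher and 1.21% lower. Among secreted Wnt antagonists other than Wif1, 3 of 5 measured genes were higher in both libraries: Dkk2 at 96.9 against 19.0 CPM in control and 108 against 18.8 CPM in JQ1, Dkk3 at 401 against 123 CPM in control and 406 against 185 CPM in JQ1, and Sfrp2. Sfrp2 was found in only 6 control members, 1 of which held 60% of its UMIs. Sfrp4 went the other way, at 23.4 against 149.8 CPM in control and 29.3 against 127 CPM in JQ1, 6.40-fold (3.05 to 16.1) and 4.34-fold (3.54 to 5.37) lower. Sfrp1 was called lower in control and was not called in JQ1. Notum, an enzyme that strips the lipid from Wnt proteins, had too few UMIs for a call in control. It stood at 70.2 against 5.55 CPM in control and 74.3 against 5.06 CPM in JQ1.

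Some intracellular Wnt target genes were also higher. Nkd2, which binds Dishevelled and dampens the signal, stood at 314 against 39.6 CPM in control and 358 against 38.6 CPM in JQ1, 7.93-fold (5.57 to 11.4) and 9.28-fold (8.17 to 10.6) higher. Axin2, a scaffold of the complex that destroys beta-catenin, was 2.03-fold (1.21 to 3.33) and 2.31-fold (1.963 to 2.73) higher. These were 2 of the 4 Wnt target genes measured in both libraries. Tcf7l2, another of the 4, was called lower in control and was not called in JQ1. Sp5, Apcdd1 and Nkd1 were under the limit in control and 7.06-fold, 3.65-fold and 5.93-fold higher in JQ1. Of 5 measured Wnt receptors, Fzd1 alone was called, at 291 against 74.5 CPM in control and 398 against 127 CPM in JQ1, and of 4 ligands and R-spondins 0 were called in both libraries. Wnt5a, a ligand made by mesenchyme, stood at 157 against 89.6 CPM in control and 283 against 141 CPM in JQ1.

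Ligands and inhibitors of the Bmp and Tgf-beta family were split. The shares over all 4952 genes measured in both libraries were 1.6% higher and 1.21% lower, and Gdf10 is a marker the cells were proposed with. Of 10 ligands, Gdf10 and Bmp7 were higher and Bmp5 lower, with Bmp7 at 56.8 against 21.4 CPM in control and 39.8 against 7.27 CPM in JQ1 and Bmp5 at 6.68 against 88.0 CPM in control and 32.7 against 70.1 CPM in JQ1. Of 15 inhibitors, 2 were higher and 3 lower. Nbl1, a secreted Bmp antagonist, stood at 1450.3 against 422 CPM in control and 1501 against 510.2 CPM in JQ1. Ltbp2, which sits on elastic microfibrils, was 6.38-fold (4.19 to 9.82) and 3.07-fold (2.47 to 3.82) higher. The lower ones included the Bmp antagonist Chrdl1 and the latent Tgf-beta binding protein Ltbp4, the latter at 284 against 571 CPM in control and 222 against 509 CPM in JQ1. None of 8 receptors and 0 of 9 Id and Smad target genes was called in both libraries.

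Retinoid handling held 3 higher genes of 9 measured and 1 lower, against 1.6% and 1.21% of all 4952 genes measured in both libraries. Of the 3 higher genes, Crabp1 is a marker the cells were proposed with. Besides Crabp1 these were Cyp26b1, the enzyme that breaks down retinoic acid, at 317 against 119 CPM in control and 312 against 122 CPM in JQ1, and Stra6, a receptor that takes up vitamin A, at 80.2 against 5.55 CPM in control and 31.3 against 10.6 CPM in JQ1. The lower gene was Rbp4, the carrier of vitamin A in blood. The synthesising enzymes Aldh1a1 and Rdh10 were not called in both libraries, Aldh1a1 standing at 60.2 against 69.0 CPM in control and 91.9 against 87.4 CPM in JQ1.

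In each matrix list a minority of the genes was called in both libraries. Over all 4952 genes measured in both, 1.6% were called higher and 1.21% lower. Of 11 fibrillar and associated collagens, 8 were higher in control members (median log2 ratio 1.20) and 1 in JQ1 members (median 0.67), Col11a1 in both, and 0 were lower. Within single libraries, 5.82% of all measured genes were higher in control members and 2.45% in JQ1 members. Col7a1 forms the anchoring fibrils that tie connective tissue to the epithelial basement membrane. It stood at 338 against 80.9 CPM in control and 286 against 64.3 CPM in JQ1, 4.17-fold (3.14 to 5.55) and 4.45-fold (3.99 to 4.97) higher, and was the only called gene of 14 basement membrane genes measured in both libraries. Lamc3, a laminin chain that was outside that list, was 6.00-fold (3.77 to 9.67) and 7.35-fold (6.31 to 8.60) higher. Eln, the core of elastic fibres, stood at 1343 against 276 CPM in control and 536 against 166 CPM in JQ1, 4.87-fold (4.21 to 5.64) and 3.23-fold (3.005 to 3.47) higher. Of 21 proteoglycan and elastic fibre genes it was the only one higher in both, and Ogn and Fmod were lower. Adamts2, which trims procollagens, was the only metalloproteinase-family gene of 10 called in both libraries, at 438 against 135 CPM in control and 459 against 156 CPM in JQ1. Of 16 myofibroblast genes 3 were higher (Postn, Lrrc15 and Col11a1), with Postn at 1995 against 538 CPM in control and 1291 against 577 CPM in JQ1.

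More inflammatory mediators were lower than higher. Of 21 inflammatory mediators, 7 were lower in both libraries and 1, Il34, was higher. Of all 4952 genes measured in both libraries, 1.21% were called lower and 1.6% higher. The eosinophil attractant Ccl11 stood at 301 against 995 CPM in control and 302 against 1072 CPM in JQ1, 3.31-fold (2.67 to 4.14) and 3.55-fold (3.33 to 3.79) lower. Cxcl12, the ligand of CXCR4, stood at 157 against 639 CPM in control and 213 against 556 CPM in JQ1, and Cxcl14 at 190.5 against 582 CPM in control and 263 against 579 CPM in JQ1. Il33, an alarmin, was at 0 in control members against 63.4 CPM, at least 6.33-fold lower, and 4.05-fold (3.11 to 5.37) lower in JQ1. Il6, Lif and Il11 were the others, Lif and Il11 resting on 1 and 4 control cells. In cells of 2000 to 8000 UMIs Il11 was higher in JQ1 members (log2 ratio 0.72). Complement C3 stood at 595 against 1801 CPM in control and 540.5 against 1368 CPM in JQ1, and with C4b it was lower in both libraries among 8 complement genes.

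Ranked over all measured genes, those highest against other fibroblasts were Pla2g7, Nkd2, F5, F13a1, Tnfrsf21, Lamc3, Aqp1, Lrrc15, Cdh11, Col7a1, Tnn, Spon1, Bpgm, Eln and Gpc1. F5, coagulation factor V, stood at 124 against 12.7 CPM in control and 119 against 7.14 CPM in JQ1. F13a1, the chain of factor XIII that crosslinks fibrin, stood at 291 against 15.1 CPM in control and 206 against 35.3 CPM in JQ1, and 1 control member held 55.2% of its UMIs. In cells of 2000 to 8000 UMIs its control log2 ratio was 2.73, against 4.27 in all, and that of Eln 1.38, against 2.28. Pla2g7, which degrades platelet-activating factor, stood at 174 against 8.72 CPM in control and 109 against 14.9 CPM in JQ1. Cdh11, a cadherin of mesenchymal cells, was 5.04-fold (3.75 to 6.78) and 3.62-fold (3.26 to 4.02) higher. With 2% collagen and Dcn in place of 0.5%, which leaves 8 control members, F5 turned to a log2 ratio of -0.70 in control.

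The lowest were Adamtsl3, Myoc, Ifi204, Penk, Ebf2, Il33, Sfrp4, Gpx3, Scn7a and Ifi207. Gpx3, a secreted glutathione peroxidase, stood at 53.5 against 373 CPM in control and 99.3 against 337 CPM in JQ1. Scn7a, a sodium channel, stood at 16.7 against 173 CPM in control and 53.5 against 186 CPM in JQ1, and Penk, the precursor of enkephalins, at 23.4 against 167 CPM in control and 30.7 against 142 CPM in JQ1. The transcription factors Ebf1 and Ebf2 were lower and Prrx2 was higher, the only 3 of 29 mesenchymal factors called in both libraries. Ebf1 stood at 86.9 against 305 CPM in control and 132 against 381 CPM in JQ1 and Prrx2 at 124 against 54.7 CPM in control and 169.6 against 56.1 CPM in JQ1. Across the 4952 genes, the log2 ratios of the control and the JQ1 library had a Pearson r of 0.67 and a Spearman rho of 0.53, over genes and not over replicates.

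**Figure D3:**
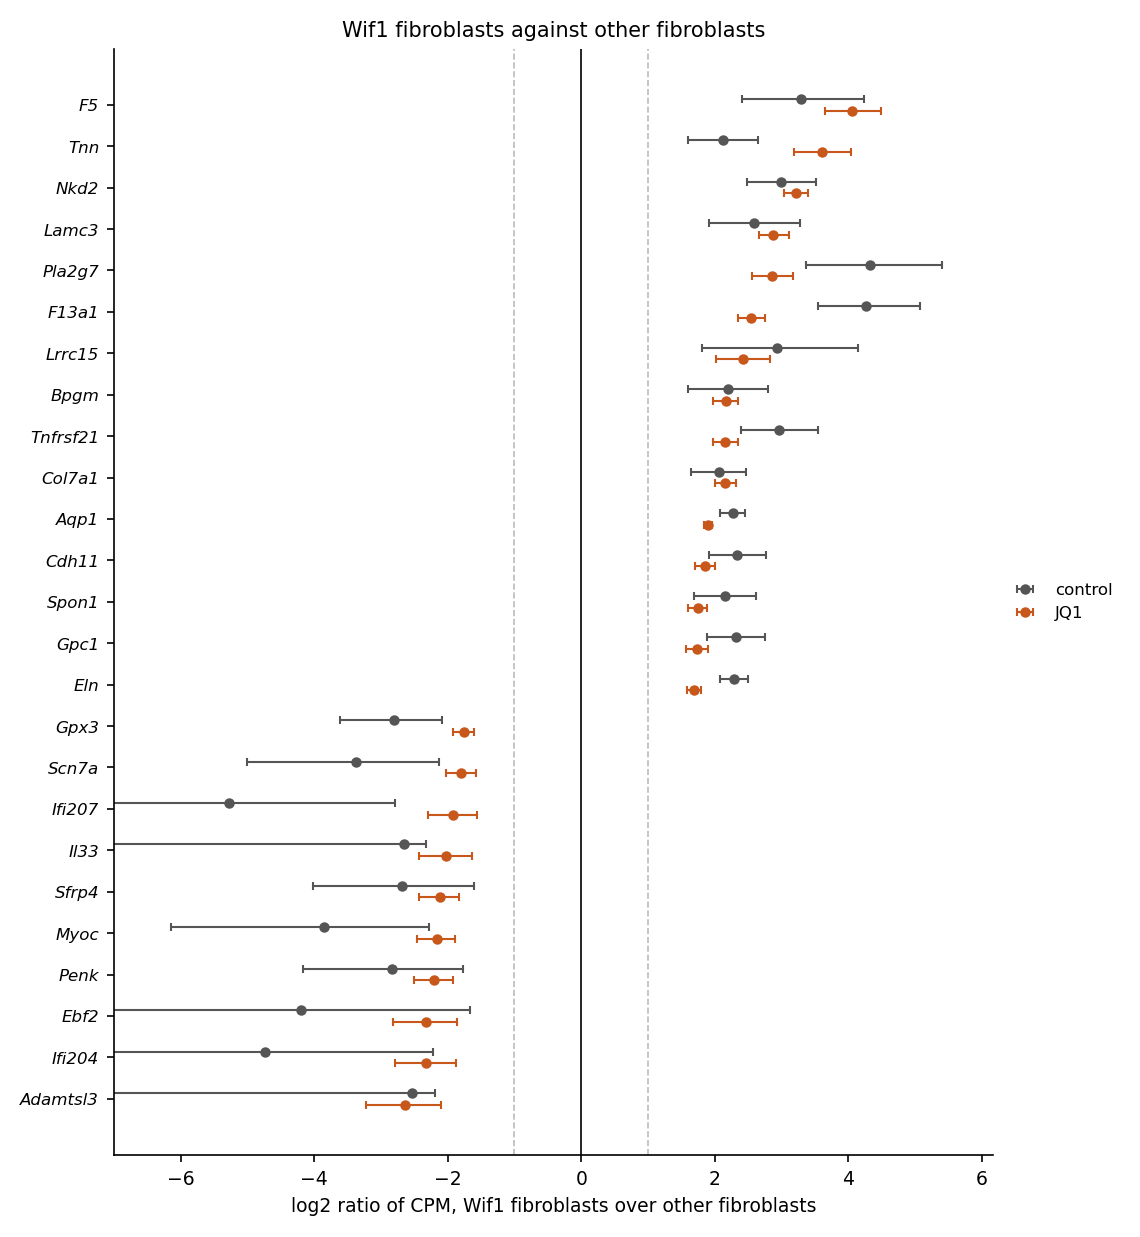
Log2 ratio of CPM in Wif1 fibroblasts over other fibroblasts (x axis) for the 15 genes ranked highest and 10 ranked lowest, in the control (grey) and JQ1 (orange) library; whiskers are 95% counting intervals, those that reach the left edge run on beyond it, and dashed lines mark 2-fold. Every point lies past 2-fold in both libraries, and the whiskers of the genes that are lower are widest in control, where 69 cells were summed; Adamtsl3 and Il33 had 0 UMIs there and are drawn at 3 counts.

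By detection in cells of 2000 to 8000 UMIs, the genes most alike to Wif1 were Tnn, F5, Pla2g7, Prdm1 and Col7a1. Likeness was the share of members over the share of other fibroblasts with a UMI, the lower of both libraries. Tnn, tenascin N, was found in 21.7% of 46 control members against 1.09% of 274 other fibroblasts, and in 12.6% of 533 JQ1 members against 0.969% of 1445. Prdm1, a transcription factor, was found in 26.1% against 3.28% and in 19.3% against 2.21%. The highest share among the 5 was 31.0% of JQ1 members, for Col7a1, so that none was found in most members.

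Members differed among themselves. In control, cells with Mmp3 had Gdf10 more often than cells without (57.6% of 33 against 27.8% of 36), and all 33 had Aqp1 against 66.7%. In JQ1, Gdf10 was found in 68.6% of 245 members with Mmp3 and 66.1% of 448 without. Members with Mmp3 were deeper (medians of 5285 against 2740.5 UMIs in control, 5695 against 3723 in JQ1), and the part of depth in these shares was not tested.

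The share of Wif1 fibroblasts was higher in the JQ1 library. They were 9.06% of gated fibroblasts in control (7.11 to 11.3, 69 of 762) and 16.9% in JQ1 (15.7 to 18.0, 693 of 4111), a difference of 7.80 percentage points (5.29 to 9.98). With each cell thinned to 1000 UMIs, and the gate applied again, the shares were 8.20% (61 of 744) and 13.0% (557 of 4272) and the difference 4.84 points (2.44 to 6.89). Thinning left out 42 control and 118 JQ1 gated cells with fewer UMIs. With at least 2 Wif1 UMIs the difference was 7.06 points (49 of 731 and 538 of 3909), where cells with 1 Wif1 UMI left the gated fibroblasts too. The rule reads Wif1, whose own level in members was 1440.3 CPM in control and 2122 in JQ1. A Wif1 UMI was also more common in JQ1 cells of other types (above). A larger share of cells, more Wif1 RNA per cell and free Wif1 RNA from outside the cell therefore cannot be told apart. The part of Wif1 fibroblasts in all kept cells, 0.834% and 4.79%, further moves with how many cells of other types each library holds.

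Between the libraries, 271 of 5635 genes measured in members were at least 2-fold higher in JQ1 (4.81%) and 125 lower (2.22%), 7.03% in all. In other fibroblasts it was 53 (1.02%) and 35 (0.672%) of 5210, 1.69% in all. The control members are 69 cells and the other control fibroblasts 404, so counting error widens the first pair of counts more, and the difference between the pairs has no test. The median log2 ratio over genes was 0.01 and 0.03. Because 69 cells allow 1 cell to set a sum, each gene was also computed without its highest cell in each library. This alternative was chosen after the data were seen, and left 485 higher and 83 lower. Leaving out 1 of 69 control and 1 of 693 JQ1 members tends to lower control sums more, which raises ratios of JQ1 to control.

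Timp3, an inhibitor of metalloproteinases that binds to the matrix, was the gene ranked highest. It stood at 595 CPM in control against 1914 CPM in JQ1, 3.22-fold (2.77 to 3.76) higher, with a UMI in 65.2% of control and 79.2% of JQ1 members. In other fibroblasts it stood at 841 and 1124 CPM, 1.34-fold (1.25 to 1.43). Members thus lay below other fibroblasts in control and above them in JQ1. Without the highest cell, a setting that tends to raise ratios of JQ1 to control, the ratio was 3.49-fold. Timp3 was the only 1 of 11 measured protease inhibitors called. Timp1 stood at 785 CPM in control against 559 CPM in JQ1 and Timp2 at 1176 CPM in control against 1207 CPM in JQ1.

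Mmp3 was lower in JQ1 members. It stood at 7261 CPM in control against 2115 CPM in JQ1, 3.43-fold (3.27 to 3.60) lower, and at 2448 and 1629 CPM in other fibroblasts, 1.503-fold (1.44 to 1.56) lower. Detection was 47.8% of control members (35.6 to 60.2) and 35.4% of JQ1 members (31.8 to 39.0), and these intervals overlap. Without the highest cell of each library it was 2.79-fold lower in members, and in other fibroblasts 1.06-fold lower.

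Of 13 metalloproteinases and relatives measured in members, 5 were lower in JQ1 (Mmp3, Mmp10, Mmp12, Mmp13 and Adamts4) and 0 higher, with a median log2 ratio of -0.54. In other fibroblasts 2 of 10 were lower, with a median of -0.37. Over all genes, 2.22% were lower and 4.81% higher in members, and 0.672% and 1.02% in other fibroblasts. The count of lower metalloproteinases in members rests on few cells. Mmp13, collagenase 3, had UMIs in 4 control members, 1 of which held 92.6% of them, and without the highest cells it stood at 146 CPM in control and 161 in JQ1. Mmp10 and Mmp12 were each found in 2 control members. Without the highest cells, Mmp3, Mmp10, Mmp12 and Adamts4 were lower and the median was -0.18. Mmp2 and Mmp14, which most members expressed, were not called: Mmp2 stood at 1176 CPM in control against 1459 CPM in JQ1 and Mmp14 at 475 CPM in control against 379 CPM in JQ1.

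The promoters of Mmp3 and Timp3, the protease and the inhibitor with opposite differences, are shown because stromal protease genes are known targets of AP-1, the dimer of Fos and Jun proteins. The sequences are the 250 bases before the RefSeq start site in GRCm38.p6, 5′ to 3′ on the gene's strand, with the AP-1 heptamer in capitals; Mmp3 lies at chr9:7445572-7445821, plus strand, and Timp3 at chr10:86300162-86300411, plus strand.
Mmp3: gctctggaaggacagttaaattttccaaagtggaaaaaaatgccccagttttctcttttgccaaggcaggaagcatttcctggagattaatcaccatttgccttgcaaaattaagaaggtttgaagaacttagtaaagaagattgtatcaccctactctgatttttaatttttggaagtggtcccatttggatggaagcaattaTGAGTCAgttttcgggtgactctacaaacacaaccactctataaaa
Timp3: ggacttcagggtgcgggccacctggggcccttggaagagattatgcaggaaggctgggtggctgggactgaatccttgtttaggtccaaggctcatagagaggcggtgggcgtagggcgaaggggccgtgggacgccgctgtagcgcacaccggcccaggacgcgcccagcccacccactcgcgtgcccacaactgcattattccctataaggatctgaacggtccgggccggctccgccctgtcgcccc
The Mmp3 window holds 1 match to TGAGTCA or its reverse complement TGACTCA, which starts 46 bases before the start site, and the Timp3 window none. On both strands, 1466 of 32851 RefSeq promoter windows of this length (4.46%) hold a match. The windows of Mmp10 and Mmp13 hold 1 each, that of Mmp12 holds 1 for 1 of its 2 start sites, and those of Wif1, Gdf10, Crabp1 and Aqp1 hold none. A match is a run of letters and not a measured site, and its part in the differences between the libraries was not tested. Of 25 immediate early and dissociation genes, 0 were called between the libraries in members (median log2 ratio -0.30), or in other fibroblasts (-0.26). Fos stood at 5299.9 CPM in control against 4056 CPM in JQ1 and Jun at 2650.0 CPM in control against 2157 CPM in JQ1.

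Elastic fibre and other matrix genes were lower in several cases. Eln stood at 1343 CPM in control against 536 CPM in JQ1, 2.51-fold (2.25 to 2.79) lower, with a UMI in 68.1% and 52.4% of members. Other fibroblasts had 276 and 166 CPM. In cells of 2000 to 8000 UMIs its log2 ratio was -0.49, short of 2-fold. Ltbp2 stood at 197 CPM in control against 57.8 CPM in JQ1, 3.41-fold (2.51 to 4.58) lower. Has2, which makes hyaluronan, was lower and Omd higher, so that of 21 proteoglycan and elastic fibre genes 2 were lower and 1 higher, with a median of -0.14. Of 11 fibrillar and associated collagens 0 were called, with a median of -0.34 against 0.19 in other fibroblasts. Prg4, the lubricant lubricin, stood at 538 CPM in control against 98.5 CPM in JQ1 in sums and was found in 12 control members, with a log2 ratio of -0.71 in cells of 2000 to 8000 UMIs.

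Among signalling genes, Bmp2 stood at 394 CPM in control against 163 CPM in JQ1, 2.42-fold (1.97 to 2.95) lower, against 218 and 211 CPM in other fibroblasts. It was found in 55.1% of control members (42.6 to 67.1) and 38.5% of JQ1 members (34.9 to 42.3). With 2% collagen and Dcn its log2 ratio turned to 1.32, on 8 control cells. Sfrp1, a Wnt antagonist, was higher in JQ1 at 107 CPM in control against 332 CPM in JQ1, 3.101-fold (2.18 to 4.55), and 375 and 360.5 CPM in other fibroblasts. Gdf10 was 1.84-fold (1.54 to 2.20) higher, short of the limit, but past it in cells of 2000 to 8000 UMIs (log2 ratio 1.12). Nkd2, Axin2, Dkk2 and Dkk3 lay between 1.01-fold and 1.14-fold. Of the 8 Wnt target genes measured in members, Nkd1 and Lgr5 were called higher, on 6 and 2 control cells. Fgf7, a growth factor for epithelium, stood at 46.8 CPM in control against 132 CPM in JQ1.

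Most of the interferon response genes measured were higher in JQ1 members. Of 15 measured, 10 were called higher and 0 lower, with a median log2 ratio of 1.28. In other fibroblasts it was 3 of 15 and a median of 0.50. Over all genes, 4.81% were called higher in members and 1.02% in other fibroblasts. Only the higher sum had to reach 30 CPM, so genes low in control could enter through JQ1, which raises the count and the median. Iigp1, a GTPase that attacks vacuoles of intracellular parasites, stood at 63.5 CPM in control against 154 CPM in JQ1. Bst2, which tethers viruses to the cell, stood at 26.7 CPM in control against 73.7 CPM in JQ1, and Gbp2 at 33.4 CPM in control against 102 CPM in JQ1. Cxcl10, a T cell attractant, stood at 167 CPM in control against 376 CPM in JQ1, with a UMI in 21.7% and 20.8% of members. Many of the control values rest on few cells (Irgm1 4, Gbp2 6, Bst2 6, Iigp1 12). Without the highest cells 10 of 15 were called and the median was 1.55. That setting takes 1 of 69 control and 1 of 693 JQ1 members and tends to raise these ratios, so it cannot check them. In control, Iigp1, Cxcl10 and Irgm1 were lower in members than in other fibroblasts (113, 373 and 59.4 CPM), and in JQ1 members had 154, 376 and 45.0 CPM against 157, 418 and 64.4 CPM.

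The summed level of immune markers was also higher in JQ1 members, and that of epithelial markers lower. Of 5 immune markers, 1 was found in control members, at a summed 40.1 CPM (Cd52, Laptm5, Tyrobp and Cd3e at 0), and 4 in JQ1 members, at 92.8 CPM (Cd3e at 0). These sums are 12 UMIs in control and 326 in JQ1. Control members held 299250 UMIs in all and JQ1 members 3513498, so a marker at 0 in control says little. Without the highest cells 1 immune marker was measured, at a log2 ratio of 0.67, and it was not called. Other fibroblasts summed to 98.3 and 101 CPM. Epithelial markers, 7 of 8 found in control members (Epcam at 0) and 8 in JQ1, summed to 197 and 115 CPM, and to 524 and 169 CPM in other fibroblasts. The part of either list in the differences between the libraries was not tested.

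MHC class I genes lay on the same side with smaller ratios. Of 17 measured, 3 were called higher (H2-Q7, Tap1 and Psmb9) and 0 lower, with a median of 0.64, against 0 of 17 and 0.23 in other fibroblasts. H2-K1 stood at 879 CPM in control against 1395 CPM in JQ1, 1.59-fold (1.40 to 1.80), and in other fibroblasts at 961 and 1049 CPM. H2-D1 stood at 658 CPM in control against 1196 CPM in JQ1, 1.82-fold (1.57 to 2.11), and B2m, the light chain, at 735 CPM in control against 1136 CPM in JQ1. Members were below other fibroblasts for H2-K1, H2-D1 and B2m in control and above them in JQ1. Over all kept cells H2-K1 stood at 724 CPM in control and 1323 in JQ1, and the part of free RNA in these values was not tested. The H2-Q and H2-T genes are near copies of each other, so their counts are uncertain.

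**Figure D4:**
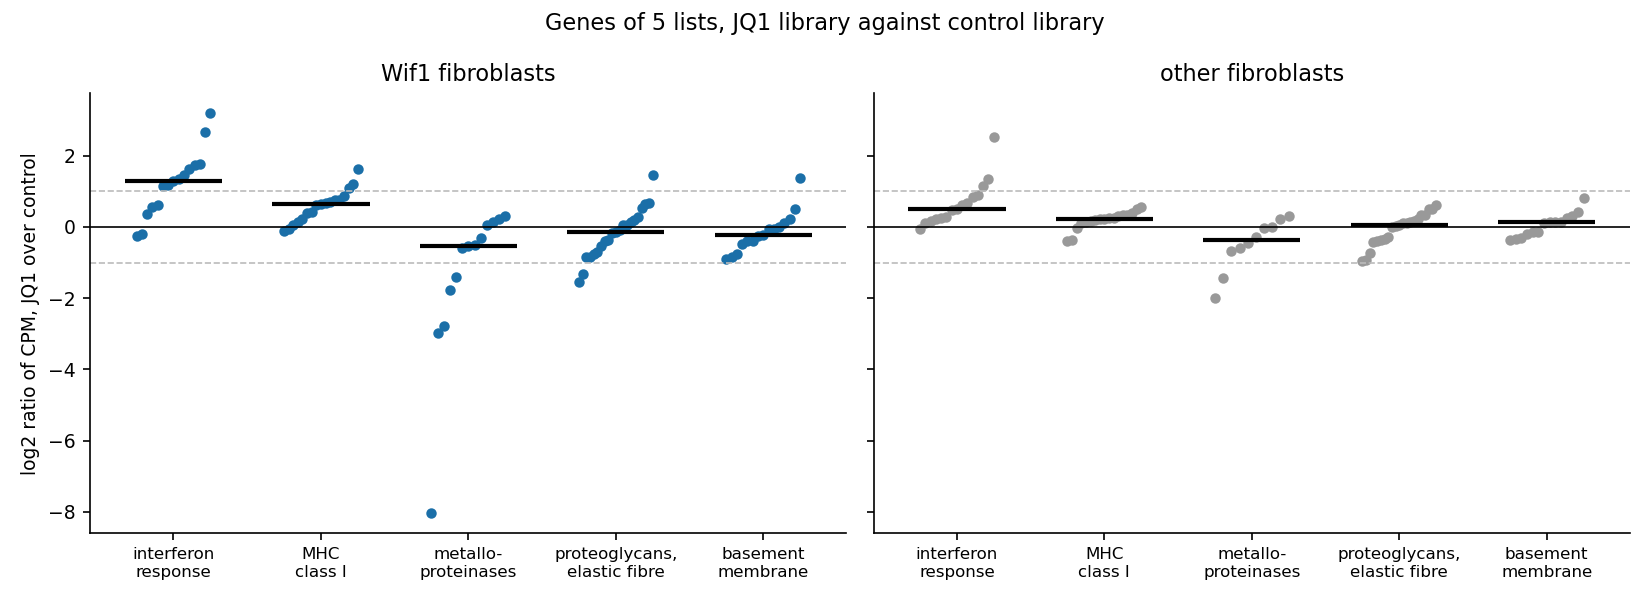
Log2 ratio of CPM, JQ1 over control (y axis), for the measured genes of 5 lists (x axis; points are genes in ascending order, bars are medians) in Wif1 fibroblasts (left) and other fibroblasts (right); dashed lines mark 2-fold. In Wif1 fibroblasts the medians are 1.28 for interferon response and 0.64 for MHC class I genes, and -0.54 for metalloproteinases, whose lowest points rest on 2 to 4 control cells.

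The other genes ranked highest in JQ1 members were Per3, Inmt, Apod, Il11, Itih5, Ly6a, Aldh3a1, Mettl7a1, Pappa, Cxcl10, Adh7, Fgf7 and Gbp2, besides Timp3 and Sfrp1. Inmt, a methyltransferase, stood at 528 CPM in control against 1374 CPM in JQ1, 2.60-fold (2.22 to 3.07), and was 1.78-fold higher in other fibroblasts. Apod, a lipid carrier, stood at 571 CPM in control against 1366 CPM in JQ1, 2.39-fold (2.05 to 2.80), against 1.11-fold. Aldh3a1 and Adh7, which oxidise aldehydes and alcohols, stood at 167 CPM in control against 387 CPM in JQ1, and 63.5 CPM in control against 168 CPM in JQ1. Il11 rests on 4 control members and Per3 on 1.

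The genes ranked lowest, besides Mmp3, Eln, Ltbp2, Prg4 and Bmp2, were A2m, Megf10, Ass1, Rarres1, Cemip, Lpl, Igfbp3, Tnn, Cdkn1c and Cxcl2. Igfbp3, which binds insulin-like growth factors, stood at 314 CPM in control against 132 CPM in JQ1. Lpl, lipoprotein lipase, stood at 257 CPM in control against 105 CPM in JQ1, 2.45-fold (1.89 to 3.14) lower, and was 1.37-fold lower in other fibroblasts. For Cxcl2 and Cemip, 1 control member held 66.1% and 48.8% of the UMIs: without the highest cells, Cxcl2 had a log2 ratio of 0.22 and Cemip stood at 146 and 101 CPM. Tnn was lower in both sets, 2.47-fold in members and 6.88-fold in other fibroblasts; in cells of 2000 to 8000 UMIs its log2 ratios were -1.47 and -1.01, so the order of the sets turned. Genes often lowered by BET inhibitors in other cells were not called (0 of 9, median -0.16), with Myc at 90.2 CPM in control against 62.0 CPM in JQ1. Of 7 genes often raised, 0 were higher and Cdkn1c was lower. Over all genes measured in members 2.22% were lower and 4.81% higher, so 0 calls in lists this short say little.

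**Figure D5:**
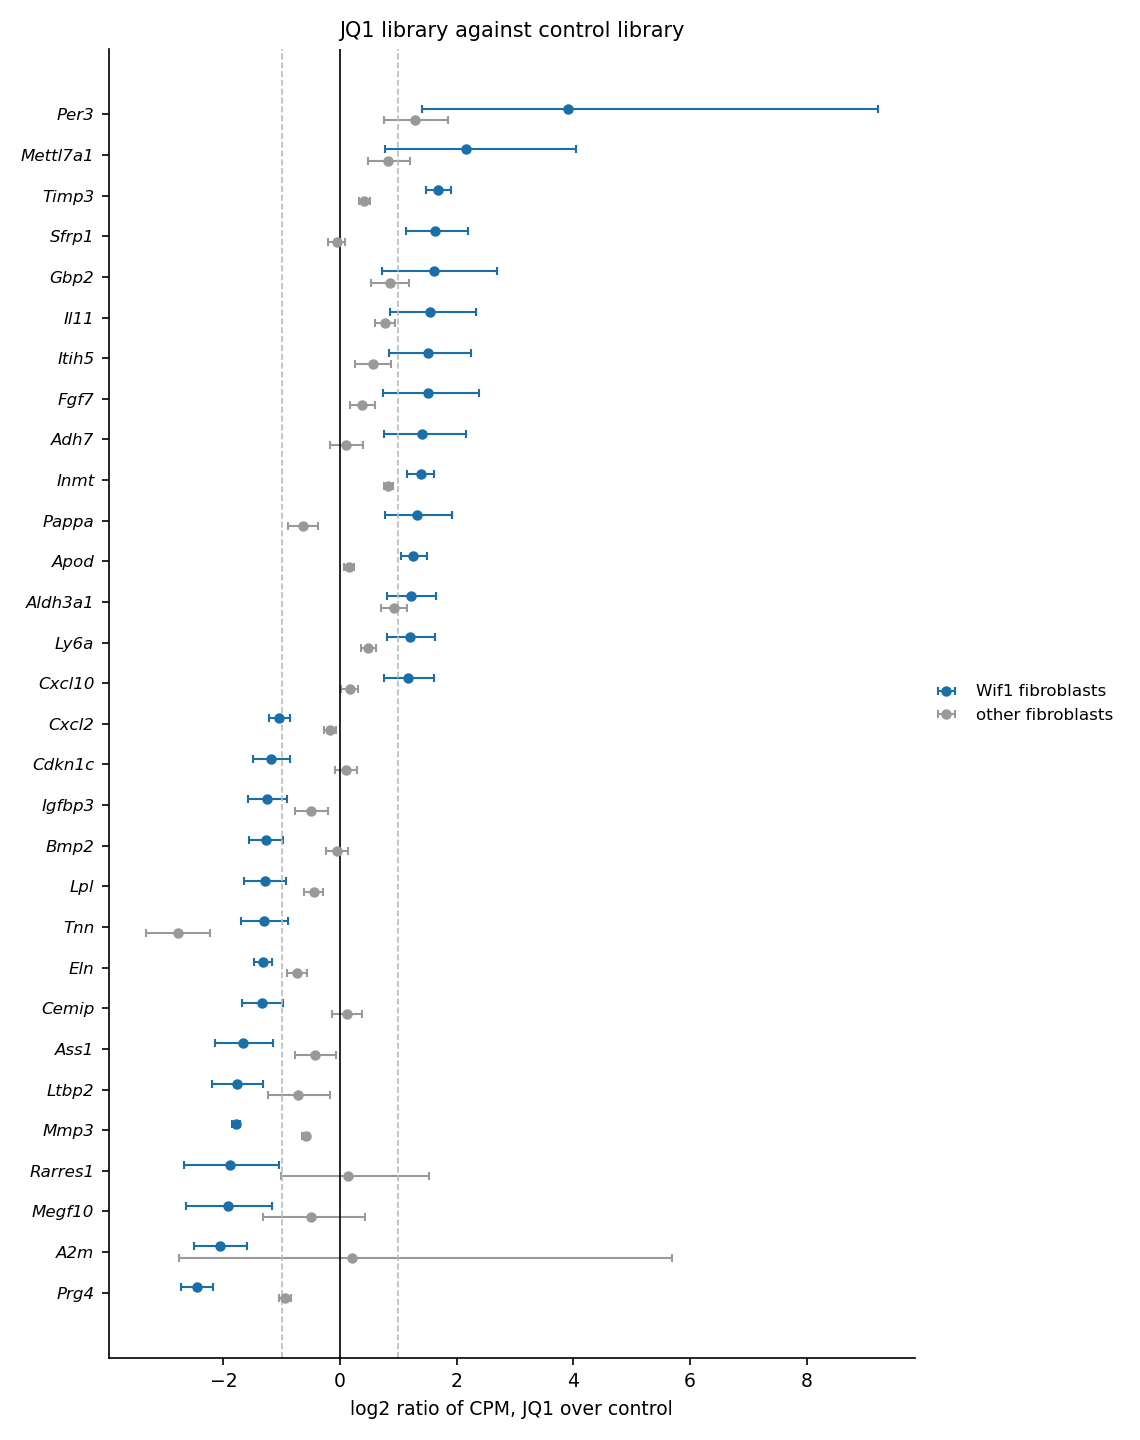
Log2 ratio of CPM, JQ1 over control (x axis), for the 15 genes ranked highest and 15 ranked lowest in Wif1 fibroblasts (blue), with the same genes in other fibroblasts (grey); whiskers are 95% counting intervals and dashed lines mark 2-fold. Timp3 and Sfrp1 lie at 3.22-fold and 3.101-fold in Wif1 fibroblasts, and at 1.34-fold and 0.962-fold in other fibroblasts.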

How the data were processed

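The deposited matrices hold raw UMI counts per gene and barcode for 31053 genes; per the submitters' processing notes, the build was mm10 and the tools included Seurat 4.0.0 and Cell Ranger 3.1.0; the barcode filter was not stated in them. No barcode held fewer than 500 UMIs. Free RNA was not subtracted. Members and lists (45) were chosen with earlier results of these data known; a list of clock genes was added later. Genes were named as list members or by rank: 15 highest and 10 lowest against other fibroblasts in both libraries, and 15 each way between the libraries, by the interval's bound nearest to 1, at 50 CPM and a UMI in 10% of cells, leaving out the rule's genes and mitochondrial, ribosomal, haemoglobin, sex-linked and predicted genes, and between the libraries also genes under 0.5 times their level over all kept cells. UMIs were summed per set. CPM have exact Poisson, ratios exact conditional, shares Clopper-Pearson and share differences Newcombe intervals (95%). A sum of 0 was set to 3 counts for a ratio, per set. Doublets were kept; calls by Scrublet in scanpy 1.11.5 (119 control, 1.44%, and 424 JQ1 cells, 2.93%) were left out as an alternative. Ratios were tested on simulated counts. Intervals used scipy 1.17.1 and numpy 2.4.6, tables pandas 2.3.3, figures matplotlib 3.10.9, all under Python 3.11.15. Some genes of the lists are counted but not reported here by name.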

Additional observations from a re-analysis of the deposited data

Results flagged for a closer look

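For 4 named genes the ratio of JQ1 to control went opposite ways in Wif1 fibroblasts and in other fibroblasts, with both counting intervals clear of no change; the difference between the sets was not tested, and each direction rests on 1 library per treatment. In cells of 2000 to 8000 UMIs only Pappa and Crabp1 still had opposite signs. Pappa, a protease of insulin-like growth factor binding proteins, had a log2 ratio of 1.32 in Wif1 fibroblasts and -0.64 in other fibroblasts (2.16 and -0.53 in cells of 2000 to 8000 UMIs). Gpx3 had 0.89 and -0.15 (0.39 and 0.04). F13a1 had -0.49 and 1.23 (1.24 and 1.34). Crabp1 had -0.28 and 0.42 (-0.09 and 0.76). F13a1 in control Wif1 fibroblasts had 55.2% of its UMIs in 1 cell, without which its ratio was 1.42-fold; Crabp1 averaged cell by cell had a log2 ratio of 0.14.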

How the results depend on the processing

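No paired analysis was possible because each treatment has 1 library. The difference in share, 7.80 points, was 10.3 with 2% collagen and Dcn, 4.84 after thinning and 3.96 over all kept cells. With 2% collagen and Dcn (8 control members), 26 genes were higher than in other fibroblasts in both libraries, 709 higher and 283 lower in JQ1 members, and 354 and 234 in other fibroblasts. Cells of 2000 to 8000 UMIs gave 463 and 203 in members. Without a filter on low genes the counts were 267 higher and 130 lower against other fibroblasts, 1175 and 1101 in JQ1 members and 906 and 1412 in other fibroblasts; at 1.5-fold they were 229 and 149, 724 and 508, and 264 and 154. Leaving out the highest cell of each gene, which removes 1 of 69 control and 1 of 693 JQ1 members, gave 485 and 83 in members. Log2 ratios called at 2-fold that reversed with 2% collagen and Dcn were, against other control fibroblasts, F5 at -0.70 and Cemip at -0.16; in JQ1 against control members, Myoc at -2.23, Scn7a at -0.60, Per3 at -0.69, Bmp2 at 1.32, Cemip at 0.73, Cdkn1c at 2.24 and Cxcl2 at 3.47; and F13a1 at -1.58 in other fibroblasts. Of called ratios, Il11 also reversed to 0.72 in JQ1 members against other fibroblasts in cells of 2000 to 8000 UMIs, and Cxcl2 to 0.22 without the highest cells. The fewer control cells come with these settings by construction; other causes were not tested. Among log2 ratios of named genes, called or not, 1621 values under other settings stayed within the counting interval, of which 34 changed sign, and 383 left it, of which 67 changed sign; the other 12 are those listed. In cells of 2000 to 8000 UMIs, 16 of 224 changed sign. Doublet calls, shared barcodes and the 10% mitochondrial limit moved no count of genes by over 1.5 times.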

Other observations

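Per3, named by rank, led to a look at other genes of the circadian clock, a list chosen after its values were seen. Of 14 clock genes measured in Wif1 fibroblasts, Per2 and Per3 were at least 2-fold higher in JQ1 and Arntl lower, with a median log2 ratio of 0.30; in other fibroblasts Per3 and Tef were higher and 0 of 13 lower, with a median of 0.71. Per2 stood at 26.7 CPM in control and 73.7 CPM in JQ1 members, Dbp at 114 and 193 CPM, Hlf at 80.2 and 140.3 CPM, Nr1d1 at 348 and 186 CPM and Arntl at 36.8 and 13.4 CPM. Per3 was found in 1 control and 142 JQ1 members. The hour of tissue collection was not stated in the labels used.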
